A study of Homo sapiens with 16 samples.

Results

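The genes described here are 9 genes of MHC class I antigen presentation, taken by gene name from a count table of 58721 genes. They are the heavy chains HLA-B and HLA-C, the light chain B2M, the peptide transporter genes TAP1 and TAP2, the loading factor TAPBP, the immunoproteasome subunits PSMB8 and PSMB9, and the transactivator NLRC5. All 9 were in the table, and TAP2 had 0 counts in every library. The 16 libraries came from RT112 cells, a bladder cancer line of the luminal type grown in RPMI, and SCaBER cells, a bladder cancer line of the basal type grown in DMEM, both with serum. Cell line and medium cannot be told apart. Each line was transfected at 10 nM (a dose taken from the labels) with a control siRNA (siControl.1 or siControl.2) or a siRNA against the transcription factor FOXA1 (siFOXA1.1 or siFOXA1.2), and each siRNA has 2 libraries per line, numbered by experiment batch. All groups therefore share the transfection itself, and no untransfected cells were included. Each line is a single established culture model, so the spread between its libraries is not a spread between tumours.

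MHC class I molecules display short peptides from inside the cell to cytotoxic T cells. Proteasomes cut proteins into peptides, the TAP transporter moves them into the endoplasmic reticulum, and tapasin (TAPBP) helps to load them onto a heavy chain paired with β2-microglobulin (B2M). Interferons raise most of these genes, through interferon regulatory factors (IRF) and through NLRC5, which acts at class I promoters, and loss of the pathway is a known route by which tumours escape T cells.

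Of the 9 genes, 7 lie on chromosome 6 and the other 2 elsewhere, with positions on GRCh38.p14 from RefSeq. HLA-C spans chr6:31268749-31272092 and HLA-B spans chr6:31353875-31357179. TAP2 (chr6:32821831-32838739), PSMB8 (chr6:32840717-32844679), TAP1 (chr6:32845209-32853704) and PSMB9 (chr6:32854192-32859851) follow each other in 1 cluster, and the starts of TAP1 and PSMB9, on opposite strands, are 488 bases apart. TAPBP spans chr6:33299694-33314078. B2M is at chr15:44711517-44718145 and NLRC5 at chr16:56989557-57083520.

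Promoter sequence, which the choice of genes did not use, was searched for interferon-type elements. RefSeq promoter windows, from 250 bases before to 50 bases after a transcript start, were matched by symbol for 8 of the 9 genes, the exception being NLRC5. Each window was searched on both strands for 2 runs of GAAA with any 2 bases between them, the core of the element that interferon-responsive factors bind, and for the shorter GAANNGAAA. The 8 genes had 10 windows. The first pattern was found in 5 of these 10, against 3.57% of all 35116 windows. They belonged to 5 of the 8 genes (B2M, TAP1, TAP2, TAPBP and PSMB8). For PSMB8 the window with the match lies wholly inside the span of the gene, at an internal transcript start. The shorter form was found in 4 of the 10 windows, against 7.66% of all windows. These belonged to 4 genes, HLA-B, HLA-C, TAP2 and PSMB8, and in TAP2 and PSMB8 it overlaps the longer one. PSMB9 had a window and neither pattern in it. The TAP1 matches lie between the starts of TAP1 and PSMB9 but outside the PSMB9 window, so the absence holds for that window alone. The stretches around the matches are shown because class I genes are known to respond to interferon, written 5′ to 3′ on the strand of the gene with up to 20 bases on each side and with the match in capitals. A capital run that starts with TTTC is the match on the other strand.
B2M (chr15:44711353-44711408, plus strand): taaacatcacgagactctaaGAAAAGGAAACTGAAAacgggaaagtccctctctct
TAP1 (chr6:32853803-32853858, minus strand): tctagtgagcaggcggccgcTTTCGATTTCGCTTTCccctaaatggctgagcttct
TAP2 (chr6:32838768-32838817, minus strand): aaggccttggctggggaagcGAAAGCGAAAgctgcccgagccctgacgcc
TAPBP (chr6:33314069-33314118, minus strand): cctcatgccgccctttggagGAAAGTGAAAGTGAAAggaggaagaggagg
PSMB8 (chr6:32844038-32844071, minus strand): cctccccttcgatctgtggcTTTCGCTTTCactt
HLA-B (chr6:31357306-31357354, minus strand): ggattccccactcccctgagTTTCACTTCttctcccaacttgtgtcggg
HLA-C (chr6:31272215-31272263, minus strand): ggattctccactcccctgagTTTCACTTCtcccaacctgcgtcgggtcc
In B2M, TAP1 and TAPBP the capitals hold 2 overlapping matches. A match is a description of letters and was not linked to binding here.

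Library totals ranged from 4528513 to 7604581 counts, so a floor of 3 counts corresponded to 0.394 to 0.662 CPM, the unit that scales each count by its library total. That floor covers counting error only. FOXA1, the target, had 18.2 to 35.0 CPM in the 4 RT112 siControl libraries, 1.32 and 3.24 CPM under siFOXA1.1, and 9.18 and 16.0 CPM under siFOXA1.2. The exact permutation test of the 4 siFOXA1 against the 4 siControl libraries gave p = 0.0286 (two-sided), the smallest that 4 against 4 allows. By siRNA, FOXA1 in RT112 fell under siFOXA1.1 (log2 ratio -3.44, edgeR adjusted p 2.19e-05). In edgeR it did not pass under siFOXA1.2 (-1.10, adjusted p 0.205) or with both pooled (-1.86, adjusted p 0.278). The RT112 results under siFOXA1.2 below therefore come from a weaker estimated knock-down. In SCaBER FOXA1 had at most 15 counts in any library, and p was 0.114 by the same exact permutation test, so a knock-down could not be shown there at this depth. Its SCaBER counts were 0 and 3 under siFOXA1.1 and 0 and 6 under siFOXA1.2, too few to rank the siRNAs by knock-down. Mitochondrial genes took 25.7% and 28.2% of the counts in the RT112 siFOXA1.1 libraries and 18.0% to 21.2% in the other RT112 libraries. Their part in the results below was not tested. Of the 8 basal markers checked, the summed level was 2351 to 4075 CPM in SCaBER siControl and 239 to 392.3 CPM in RT112 siControl, and of 9 luminal markers it was 1160 to 1474 CPM in SCaBER and 2691 to 3394 CPM in RT112.

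The 9 genes were counted sparsely. They had 13056 counts in all 16 libraries together, of which PSMB9 took 45.5%, B2M 26.3% and NLRC5 18.8%. Of the 144 values (9 genes in 16 libraries), 37 were 0 and 52 were at or under the floor of 3 counts. PSMB9 and B2M were above the floor in every library. TAPBP was at or under it in 1 library, NLRC5 in 2, PSMB8 in 6, HLA-B and HLA-C in 8 each, TAP1 in 11 and TAP2 in all 16.

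**Figure D1:**
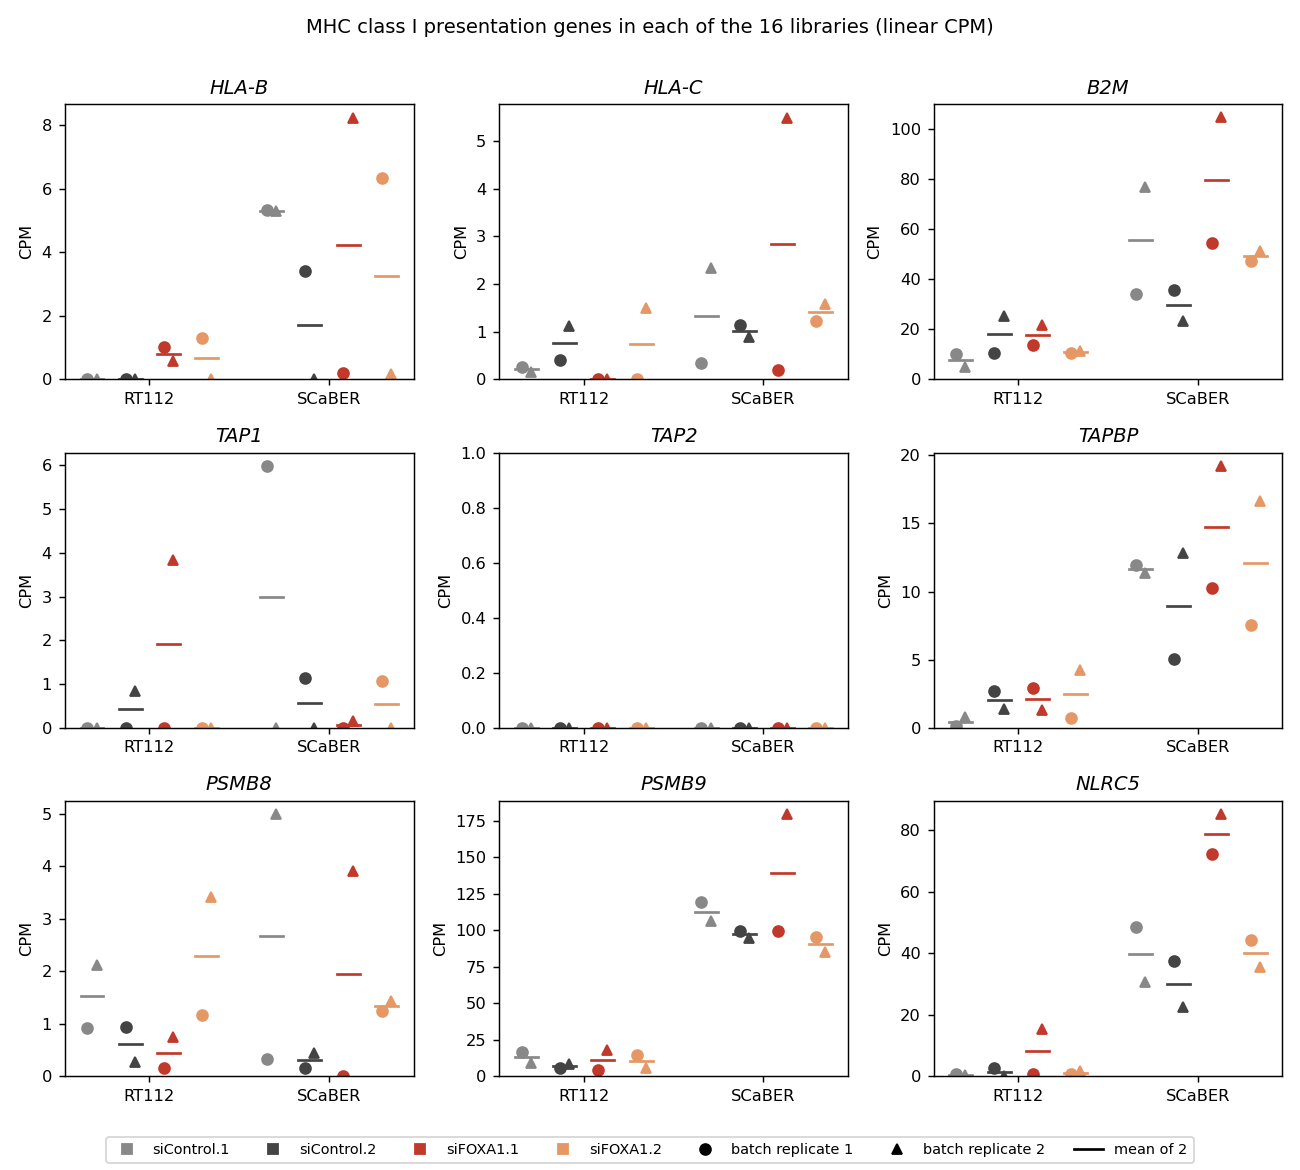
Level of each of the 9 genes in CPM (linear axis, a different range in each panel) in the 8 RT112 and 8 SCaBER libraries, with 1 point per library, shape for batch replicate and a line at the mean of 2. PSMB9, NLRC5 and TAPBP are higher in every SCaBER library than in any RT112 library, TAP2 is at 0 throughout, and SCaBER siFOXA1.1 replicate 2 is the highest SCaBER library for 6 genes.

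Low counts were a feature of the whole stretch of chromosome 6 that holds 7 of these genes. Between 30 and 34 Mb, 143 protein-coding genes of RefSeq were matched to the table by symbol, and 77 of them (53.8%) never had more than 3 counts in any library. Elsewhere on chromosome 6 this share was 28.1% of 776 genes, and over all protein-coding genes outside the stretch it was 27.2% of 18407. A median of 10 counts or more over the 16 libraries was reached by 14.7% of the genes in the stretch, by 56.2% on the rest of chromosome 6 and by 55.9% of all genes outside it. The genes at 0 included some that nearly every cell uses, chosen here after their values were seen. CSNK2B, a subunit of casein kinase 2, the heat shock gene HSPA1A and the nuclear receptor gene RXRB had 0 counts in all 16 libraries, and the tubulin gene TUBB had at most 11. In the same stretch the ribosomal protein gene RPS18 had a median of 8317 counts, ABCF1 1299 and BRD2 411. A count near 0 for HLA-B, HLA-C, TAP1, TAP2 or PSMB8 is therefore not read here as absence of the transcript. The cause was not tested. How reads that match several places, such as alternate copies of this stretch, were counted was not tested either, and this limit holds for all 7 members on chromosome 6, PSMB9, TAPBP and the fold given for HLA-B included. For B2M and NLRC5, on other chromosomes, the counting of such reads was not tested, so a loss of their reads could not be seen here. In the last 500 bases of the canonical transcripts (GENCODE v44 lifted to GRCh37, not the annotation used for counting), no window of 100 bases of any of the 9 genes occurred in a transcript of another gene. That search skipped transcripts of the same gene name, so it could not find alternate copies of these genes and does not bear on them. On the opposite strand, exons of other genes covered 100% of those bases in TAP1, by PSMB8-AS1, and in TAPBP. The deposited configuration leaves strand to automatic detection, so reads of these genes and of their antisense partners may not be told apart.

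**Figure D2:**
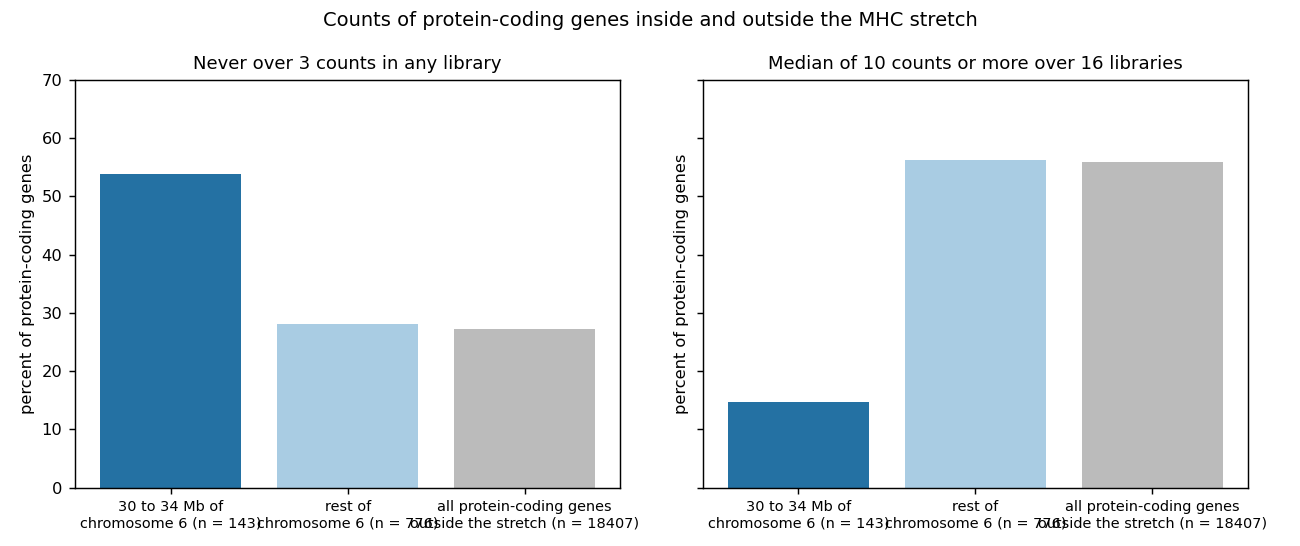
Share (percent, axis from 0) of protein-coding genes that never exceed 3 counts (left) and that have a median of 10 counts or more (right), for 143 genes at 30 to 34 Mb of chromosome 6, 776 on the rest of chromosome 6 and 18407 outside the stretch. The stretch has 53.8% of its genes never over 3 counts against 27.2% outside it, and 14.7% at a median of 10 or more against 55.9%.

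The first comparison set the lines side by side in the control libraries. The class I genes that could be tested were all lower in RT112 than in SCaBER: NLRC5, PSMB9, TAPBP and B2M, 4 of the 9. NLRC5 and TAPBP passed the filter on low counts through the SCaBER libraries alone, so only a difference in this direction could be seen for them. In edgeR 48.2% of the 12309 genes tested differed between the lines and 24.6% were lower in RT112. In all bulk values given here, fewer cells making a transcript and less RNA per cell cannot be told apart. The line, the medium and the siControl transfection in each medium enter this contrast together.

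PSMB9, the immunoproteasome subunit that replaces PSMB6, had the highest level of the 9 in SCaBER siControl, and in RT112 siControl its mean (9.86 CPM) was below that of B2M (12.8 CPM) with overlapping libraries. In SCaBER it had 119 and 106 CPM under siControl.1 and 99.6 and 94.5 CPM under siControl.2. In RT112 it had 16.3 and 9.21 CPM under siControl.1 and 5.46 and 8.48 CPM under siControl.2. No RT112 library reached any SCaBER library. The log2 fold change of RT112 against SCaBER was -3.46 (edgeR adjusted p 1.16e-08, SE 0.22).

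NLRC5, which activates class I promoters, was near the floor in RT112 and well counted in SCaBER. The SCaBER siControl libraries had 292, 197, 230 and 102 counts, or 34.8 ± 11.0 CPM (SD, n = 4). The RT112 siControl libraries had 4, 2, 20 and 0 counts, or 0.872 ± 1.21 CPM (SD, n = 4). The log2 fold change was -5.47 (edgeR adjusted p 4.42e-06, SE 0.61). In RT112 siControl.2 replicate 1 supplied 20 of these counts, and without it the estimate was -8.52, so its size depends on 1 library and is not ranked against the other genes.

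TAPBP, or tapasin, had 10.3 ± 3.56 CPM in SCaBER siControl and 1.23 ± 1.08 CPM in RT112 siControl (SD, n = 4 each). Its log2 ratio was -3.39 (edgeR adjusted p 0.000486, SE 0.64). B2M, the chain that every class I molecule needs, had 34.3, 77.1, 35.7 and 23.4 CPM in the SCaBER siControl libraries and 10.1, 4.98, 10.6 and 25.3 CPM in those of RT112. The RT112 siControl.2 replicate 2 library lay above the lowest SCaBER library, so the groups overlapped. The log2 fold change of B2M was -1.79 (edgeR adjusted p 0.000685, SE 0.35). Over all 8 libraries of each line, PSMB9, NLRC5 and TAPBP, among 7 members tested, did not overlap between the lines. In that direction this was the case for 11.4% of all genes tested. NLRC5 and TAPBP could pass the filter through SCaBER alone, so they are not compared with that share.

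The remaining genes did not pass the filter on low counts. HLA-B had 0 counts in all 4 RT112 siControl libraries and 32, 34, 21 and 0 counts in those of SCaBER, so its mean was at least 8.43-fold higher in SCaBER against the mean floor of 3 counts per RT112 library. HLA-C had 1 to 8 counts in RT112 siControl and 2 to 15 in SCaBER siControl, which overlap. PSMB8, the subunit that replaces PSMB5, had 2 to 14 counts in RT112 siControl. In SCaBER siControl it had 1 to 32, with 3 of 4 libraries at or under the floor. TAP1 had 36 and 7 counts in 2 SCaBER siControl libraries, 6 counts in 1 of RT112 and 0 in the others.

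Between genes, levels were compared in TPM, a unit that divides counts by gene length and scales every library to the same total. The kit reads transcript ends, so this division can understate long genes such as NLRC5. In SCaBER siControl the order was PSMB9 (87.3 ± 8.31 TPM), B2M (18.1 ± 10.6), NLRC5 (7.16 ± 2.12), TAPBP (5.22 ± 1.83), HLA-B (2.94 ± 2.12), PSMB8 (1.30 ± 2.07), HLA-C (1.21 ± 0.905) and TAP1 (0.925 ± 1.48), each in TPM with SD and n = 4. PSMB9 stood clear of B2M. The ranges of B2M (9.90 to 33.7 TPM) and NLRC5 (4.68 to 9.78 TPM) only just missed each other, and from NLRC5 down each neighbouring pair overlapped. In RT112 siControl PSMB9 (6.23 ± 2.75 TPM) and B2M (4.15 ± 2.91 TPM) overlapped, and each of the others averaged 0.688 TPM or less.

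The second comparison asked whether the class I genes moved when FOXA1 was targeted. Under siFOXA1.1 in SCaBER, NLRC5 rose and the other genes tested did not pass the threshold. This was 1 of 5 members tested, where edgeR called 9.26% of 11902 genes and 4.47% of the 11902 were called higher. The median log2 fold change of these 5 was 0.56, against 0.01 over all genes tested. Between siControl.1 and siControl.2 the median of the same 5 was 0.39, against 0.00024 over all genes tested, so the 0.56 is not read as a shift of the group. Under siFOXA1.2 in SCaBER 0 of 5 passed, against 0.042% of all genes, and 0 of 5 had an unadjusted p under 0.05.

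NLRC5 had 48.6 and 30.7 CPM under siControl.1, 37.3 and 22.5 CPM under siControl.2, 72.3 and 85.2 CPM under siFOXA1.1, and 44.4 and 35.5 CPM under siFOXA1.2 in SCaBER (replicates 1 and 2 in that order). Both siFOXA1.1 libraries were above all 4 control libraries, as in 13.9% of all genes tested, and the siFOXA1.2 libraries were within their range. The log2 fold change under siFOXA1.1 was 1.22 (edgeR adjusted p 0.0129, SE 0.28). Within batch 1 the siFOXA1.1 library had 1.68 times the mean of the 2 controls, and within batch 2 it had 3.20 times. Under siFOXA1.2 the log2 fold change was 0.23 (edgeR adjusted p 0.999, 95% interval -0.38 to 0.84). Set against siFOXA1.2 directly, siFOXA1.1 was 0.99 higher (edgeR adjusted p 0.112, unadjusted p 0.00970, SE 0.33), so the siRNAs were not shown to differ for NLRC5 after adjustment. The rise was past the threshold against siControl.2 alone (1.41, adjusted p 0.0214 in edgeR) but not against siControl.1 alone (1.02, adjusted p 0.0897), and it was not past it without siControl.2 replicate 2 (1.06, adjusted p 0.0624).

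B2M had 54.4 and 105 CPM under siFOXA1.1 in SCaBER and 47.5 and 51.3 CPM under siFOXA1.2, against 23.4 to 77.1 CPM in the control libraries. The higher of the siFOXA1.1 libraries was above every control and the lower one was not. The log2 fold change under siFOXA1.1 was 0.99 (edgeR adjusted p 0.0699, SE 0.32). With the experiment batch as a block it was 0.95 and passed the threshold (adjusted p 0.0465 in edgeR), which makes 2 members called in place of 1. Between siControl.1 and siControl.2 the B2M estimate was 0.89 (edgeR adjusted p 0.728, unadjusted p 0.0385), close to that under siFOXA1.1. Without siFOXA1.1 replicate 2 the change of B2M was 0.49 (adjusted p 0.478 in edgeR).

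PSMB9 had 99.2 and 179 CPM under siFOXA1.1 in SCaBER, 95.5 and 84.8 CPM under siFOXA1.2, and 94.5 to 119 CPM in the control libraries. The first siFOXA1.1 library lay within the control range and the second far above it. The log2 fold change was 0.44 (edgeR adjusted p 0.262, 95% interval -0.04 to 0.91), and without the second library it was -0.00 (adjusted p 0.997). TAPBP had 10.2 and 19.2 CPM under siFOXA1.1 and 5.03 to 12.8 CPM in the controls, a log2 ratio of 0.56 (edgeR adjusted p 0.575, 95% interval -0.51 to 1.63).

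HLA-B varied widely within siFOXA1.1, siFOXA1.2 and siControl.2 in SCaBER. It had 1 and 57 counts in the siFOXA1.1 libraries, 41 and 1 in the siFOXA1.2 libraries, and 32, 34, 21 and 0 in the controls. Its log2 fold change under siFOXA1.1 was 0.47 with a 95% interval of -2.41 to 3.35 (adjusted p 0.888 in edgeR). With this spread between libraries, neither a rise nor a fall of several-fold could be seen. HLA-C had 1 and 38 counts under siFOXA1.1 and 2 to 15 in the controls. PSMB8 had 0 and 27 counts under siFOXA1.1 and 1 to 32 in the controls.

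The SCaBER siFOXA1.1 replicate 2 library was the highest of the 8 SCaBER libraries for 6 of the 8 genes with counts: HLA-B, HLA-C, B2M, TAPBP, PSMB9 and NLRC5. Summed over the 9 genes it had 407 CPM, against 237 CPM in the other siFOXA1.1 library, 155 to 238 CPM in the controls and 205 and 191 CPM under siFOXA1.2. Without it the log2 fold change of NLRC5 was 1.14 (adjusted p 0.0474 in edgeR), and this was the 1 member still past the threshold.

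Under siFOXA1.1 in RT112, 0 of the 2 members tested passed, B2M and PSMB9, where edgeR called 32.6% of 11986 genes. Neither had an unadjusted p under 0.05, and DESeq2 also called 0. B2M had 13.6 and 21.8 CPM under siFOXA1.1, 10.3 and 11.2 CPM under siFOXA1.2, and 4.98 to 25.3 CPM in the controls. Its log2 fold change under siFOXA1.1 was 0.75 (edgeR adjusted p 0.189, 95% interval -0.14 to 1.63). Between siControl.1 and siControl.2 the B2M estimate was -1.18 (edgeR adjusted p 0.310, unadjusted p 0.0318), larger in size than the estimate for either FOXA1 siRNA. PSMB9 had 4.39 and 18.0 CPM under siFOXA1.1, the lowest and the highest of the 8 RT112 libraries. Its log2 ratio was 0.40 (edgeR adjusted p 0.626, 95% interval -0.76 to 1.56). Under siFOXA1.2 the changes of B2M and PSMB9 were -0.09 and 0.11, and 0 of 2 passed in edgeR, with 0 at an unadjusted p under 0.05, against 2.04% of all genes.

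NLRC5 was under the filter in RT112. It had 5 and 104 counts under siFOXA1.1, 5 and 11 under siFOXA1.2, and 4, 2, 20 and 0 in the controls. With a filter set by siRNA in place of target, an alternative chosen after the data had been seen, NLRC5 was tested and had a log2 ratio of 3.54 (edgeR adjusted p 0.0407, SE 1.26) under siFOXA1.1. That value rests on the replicate 2 library, since replicate 1 lay within the range of the controls. HLA-B, at 0 in all RT112 controls, had 7 and 4 counts under siFOXA1.1 and 9 and 0 under siFOXA1.2. HLA-C had 0 counts in both siFOXA1.1 libraries, where the controls had 1 to 8. TAP1 had 26 counts in siFOXA1.1 replicate 2, 6 in siControl.2 replicate 2 and 0 in the other 6 RT112 libraries.

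**Figure D3:**
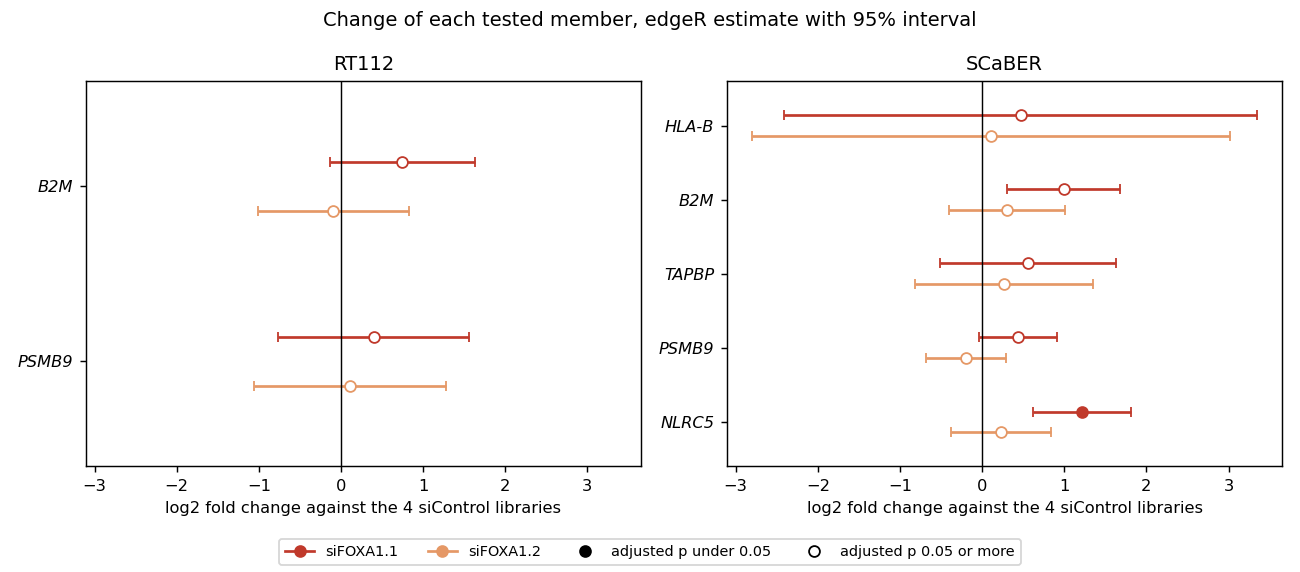
Log2 fold change of each member tested under siFOXA1.1 and siFOXA1.2 against the 4 siControl libraries in RT112 (2 members) and SCaBER (5 members), with 95% intervals from edgeR. NLRC5 in SCaBER under siFOXA1.1 (1.22) is the filled point, the 1 estimate with an adjusted p under 0.05.

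The 2 siRNAs were also compared with each other and pooled. Between siFOXA1.1 and siFOXA1.2, 0 of 5 members passed in SCaBER and 0 of 2 in RT112, against 4.85% and 28.1% of all genes in edgeR. Before adjustment p was under 0.05 for 2 in SCaBER, NLRC5 and PSMB9, and for 0 in RT112. Between the control siRNAs 0 members passed in either line, against 0.0672% of all genes in SCaBER and 2.36% in RT112, and at an unadjusted p under 0.05 there was 1 in each line, B2M. With both FOXA1 siRNAs pooled, 0 members passed in either line, against 0.0084% of all genes in SCaBER and 0.108% in RT112. Before adjustment RT112 had 0 and SCaBER had 1 with p under 0.05, NLRC5, with a pooled change of 0.79 (edgeR adjusted p 0.510, unadjusted p 0.0222, SE 0.31). All of these comparisons except siFOXA1.1 with siFOXA1.2 share the siControl libraries.

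Whether the change under a FOXA1 siRNA differed between the lines was tested as an interaction in all 16 libraries, with 7 members tested. For siFOXA1.1 0 of 7 passed, against 3.14% of 13701 genes, and for siFOXA1.2 0 of 7 passed, against 0.0438%. At an unadjusted p under 0.05 there was 1 for siFOXA1.1 and 0 for siFOXA1.2. It was NLRC5, whose change under siFOXA1.1 was estimated 2.29 higher on the log2 scale in RT112 than in SCaBER (edgeR adjusted p 0.302, unadjusted p 0.0481, SE 1.08). Without RT112 siFOXA1.1 replicate 2 it was -1.18 (adjusted p 0.763).

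Other genes of the class I pathway gave a fuller picture, since most are outside the sparse stretch and were well counted. Of 10 class I regulators, all tested in both lines, 1 (RFXAP) fell in RT112 and 1 (IRF2) rose in SCaBER under siFOXA1.1, where 32.6% and 9.26% of all genes were called. Under siFOXA1.2 0 of 10 passed in edgeR in either line, with 0 at an unadjusted p under 0.05. IRF2, a member of the interferon regulatory factor family, had a log2 ratio of 0.87 in SCaBER (edgeR adjusted p 0.0369, SE 0.24) and -0.10 in RT112 (edgeR adjusted p 0.795). The SCaBER value did not pass against siControl.2 alone (0.70, adjusted p 0.177) or siControl.1 alone (1.03, adjusted p 0.0501), or when any 1 of 6 libraries was left out (0.70, adjusted p 0.152 without siFOXA1.1 replicate 1). RFXAP, a subunit of the RFX complex at MHC promoters, had 0 counts in both RT112 siFOXA1.1 libraries, against 29 to 33 counts in the 4 controls and 54 and 52 under siFOXA1.2. It was at least 9.66-fold lower than the control mean, taking the mean floor of 3 counts per library. In SCaBER it had 37 and 24 counts under siFOXA1.1 and 5 to 33 in the controls.

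Beside TAPBP, 6 genes of peptide loading and trimming in the endoplasmic reticulum were tested. Of these, 2 were called under siFOXA1.1 in RT112 (against 32.6% of all genes) and 1 under siFOXA1.2 (against 2.04%). The count under siFOXA1.1 is near the share of all genes, and it is not read as a result about peptide loading. Calreticulin (CALR), a chaperone of the loading complex, rose in RT112 under siFOXA1.1 (0.74, SE 0.09, adjusted p 3.69e-06 in edgeR) and under siFOXA1.2 (0.36, SE 0.09, adjusted p 0.0350). TAPBPL, a tapasin-related peptide editor, fell by 1.37 on the log2 scale in RT112 under siFOXA1.1 (edgeR adjusted p 0.0188, SE 0.43), and did not pass against siControl.2 alone (adjusted p 0.0750) or without siFOXA1.1 replicate 2 (adjusted p 0.127) or siControl.1 replicate 2 (adjusted p 0.0601). In SCaBER 0 of 6 passed in edgeR under either siRNA, with 1 (CALR, 0.41, adjusted p 0.0764) at an unadjusted p under 0.05 under siFOXA1.1 and 0 under siFOXA1.2. In the comparison of the lines all 6 were lower in RT112, as were 24.6% of all genes, with a median log2 fold change of -0.92 against 0.02 over all genes.

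The share of proteasome genes called in RT112 under siFOXA1.1 was near the 32.6% of all genes, 3 of 14 core and 6 of 17 cap subunits, and is not read as a result about the proteasome. The activator subunits PSME1 and PSME2, which interferon raises together with the immunoproteasome, both rose in RT112 under siFOXA1.1, by 0.43 (edgeR adjusted p 0.0148, SE 0.13) and 0.62 (edgeR adjusted p 0.0148, SE 0.18). With library totals in place of TMM normalization they were 0.29 and 0.49 and did not pass (adjusted p 0.0897 and 0.0558). They also missed it with limma and against siControl.1 alone. Without siFOXA1.1 replicate 1, which leaves 1 siFOXA1.1 library, each was 0.41. Neither call held in every fit that left out 1 library. Under siFOXA1.2 in RT112 0 of the 2 passed in edgeR, with a median of -0.05 and 0 at an unadjusted p under 0.05. Between siControl.1 and siControl.2 in RT112 their median was 0.47, with 0 called and 1 at an unadjusted p under 0.05. In SCaBER under siFOXA1.1 the changes of PSME1 and PSME2 were 0.19 and 0.45 and did not pass. PSMB10, listed with them, was not tested in either line. Of the 14 constitutive core subunits, 3 rose in RT112 under siFOXA1.1: PSMB1 (0.48), PSMB7 (0.41) and PSMB5 (0.40), of which PSMB5 is the one that PSMB8 replaces. PSMB7 and PSMB5 did not pass with library totals (0.27 each, adjusted p 0.117 and 0.0808), none of the 3 passed with limma on TPM (0.16, 0.076 and 0.081), and PSMB1 did not pass against siControl.1 alone (adjusted p 0.0933). Of 17 subunits of the 19S cap, 2 rose and 4 fell in RT112, with PSMD8 at -0.87 (adjusted p 7.31e-05 in edgeR). Under siFOXA1.1 in SCaBER 0 core and 0 cap subunits passed in edgeR, with 2 and 1 at an unadjusted p under 0.05. Under siFOXA1.2 0 passed in either line, where 2 core and 4 cap subunits of RT112 and 0 of SCaBER had an unadjusted p under 0.05.

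Cytosolic peptidases, which trim or destroy peptides before transport, moved in both directions under siFOXA1.1. In RT112 4 of 5 were called, against 32.6% of all genes, and in SCaBER 3 of 5, against 9.26%. Of the 5, LNPEP and NPEPPS rose in both lines (0.81 and 1.04 in RT112, 1.05 and 0.56 in SCaBER). BLMH fell in both (-1.36 in RT112, -1.10 in SCaBER), and THOP1 fell in RT112 (-1.25, adjusted p 0.000275 in edgeR). Against 1 control siRNA alone several of these did not pass: LNPEP in RT112 (0.32, adjusted p 0.378) and NPEPPS in SCaBER (0.42, adjusted p 0.226) against siControl.2, BLMH in RT112 (-0.85, adjusted p 0.103) and SCaBER (-0.56, adjusted p 0.368) against siControl.1, and LNPEP in SCaBER against either (adjusted p 0.0645 and 0.0824). LNPEP itself differed between the control siRNAs in RT112 (-0.99, adjusted p 0.0449 in edgeR). All 3 SCaBER calls were also lost without siControl.2 replicate 2, among other libraries. Under siFOXA1.2 0 of 5 passed in edgeR in either line, where 2 in RT112 and 0 in SCaBER had an unadjusted p under 0.05.

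**Figure D4:**
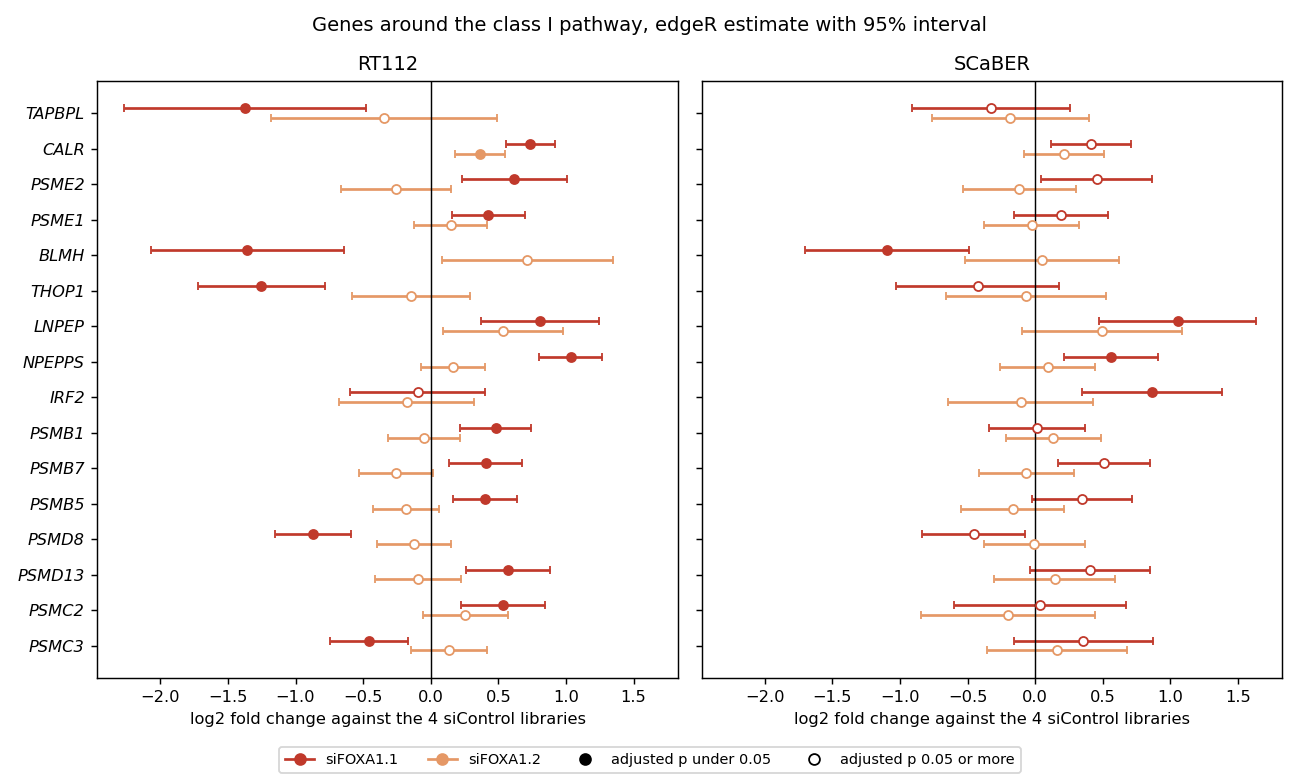
Log2 fold change of 16 genes around the class I pathway under siFOXA1.1 and siFOXA1.2 against the 4 siControl libraries, with 95% intervals from edgeR and filled points where the adjusted p was under 0.05. CALR in RT112 is higher under both siRNAs (0.74 and 0.36), and BLMH is lower in both lines under siFOXA1.1 (-1.36 and -1.10). RFXAP is left out because both of its RT112 siFOXA1.1 libraries are at 0.

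Of 4 further class I heavy chain genes, 3 were tested in SCaBER and 0 in RT112, and 0 passed in edgeR under either siRNA, with 1 at an unadjusted p under 0.05 under siFOXA1.1. HLA-F, named here after its values were seen, had 21.6 to 34.6 CPM in the SCaBER siControl libraries and 0 counts in all 4 of RT112. Against the mean floor of 3 counts per library it was at least 67.3-fold higher in SCaBER. How reads that match several places were counted was not tested for HLA-F either, so its 0 counts are not read as absence. The fold carries the same limit as that of HLA-B. Of 11 MHC class II genes 5 were tested in SCaBER, and under either siRNA 0 passed in edgeR, also at an unadjusted p under 0.05. The summed level of the 11 was 175 to 200 CPM in SCaBER siControl and at most 1.58 CPM in RT112 siControl, and 4 of 5 tested were lower in RT112. Of the 11, 10 were at or under the floor in every RT112 siControl library. Such genes could pass the filter on low counts through SCaBER alone, so only a difference in this direction could be seen for them. The 4 of 5 is therefore not compared with the share of all genes. Leukocyte markers, 10 in all, summed to at most 2.43 CPM in the siControl libraries and at most 5.49 CPM in the siFOXA1 libraries, with 7 of 10 at 0 in every SCaBER siControl library. Of 7 ligands of activating receptors on natural killer cells, 2 were tested in RT112 and 3 in SCaBER, and under either siRNA 0 passed in edgeR, also at an unadjusted p under 0.05.

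The genes whose levels followed the members most closely were EIPR1, ZNF143, TSFM, FRMD6 and ADAR. The measure was Pearson's r, within each line over its 8 libraries, between log2 CPM of a gene and the mean standardised level of the tested members (2 in RT112, 5 in SCaBER), taking the lower r of the lines over 10683 genes. The r values were 0.860 in RT112 and 0.800 in SCaBER for EIPR1, and 0.730 and 0.733 for ADAR, an RNA-editing enzyme with an interferon-induced form. Libraries of 1 siRNA are not independent of each other, and SCaBER siFOXA1.1 replicate 2 is an extreme point, so these values are a description of 8 libraries per line.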

How the data were processed

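RNA ends were sequenced with a 3' mRNA kit in 16 libraries. The authors deposited raw counts per gene and TPM values. Trimming by TrimGalore 0.6.2 (minimum quality 20, minimum length 10) and alignment and counting by STAR 2.6.1a on hg38 and GENCODE 29 are named in the deposited configuration, whereas the study's methods name hg19. Values in CPM were computed here from the deposited counts and each library's total.

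Each line was fitted on its whole table with edgeR 4.0.16 in R 4.3.3 (TMM factors, filterByExpr by siRNA target, quasi-likelihood F test, Benjamini-Hochberg adjustment, threshold 0.05). Genes tested numbered 11986 (RT112) and 11902 (SCaBER). Each FOXA1 siRNA was set against the mean of both control siRNAs, which share those 4 libraries. The lines were compared over 8 siControl libraries (12309 genes) and the interaction over all 16 (13701 genes). TPM values were compared on log2(TPM + 1) with limma 3.58.1 as an alternative, and DESeq2 1.42.0 was another. Per the labels the replicate number is an experiment batch, so it pairs the samples. Deviations of same-numbered libraries correlated at 0.0267 to 0.0981 in RT112 and 0.0318 to 0.523 in SCaBER (6 pairs each).

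The members and all gene lists were chosen with earlier results of these data known. Genes named were the 9 members, FOXA1, up to 4 genes per list called under siFOXA1.1 in either line, the 5 most similar genes, and others where stated. With 2 libraries per siRNA, p-values measure the spread between these libraries, and nothing states separate cultures. Library totals of 4528513 to 7604581 limit precision for genes near the floor of 3 counts. Adapter and index files were not used.
Of the regulators tested, 1 gene is not reported here.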

Additional observations from a re-analysis of the deposited data

Results flagged for a closer look

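Of 31 groups of 4 libraries checked, 8 had 1 library set apart from the other 3 by more than 0.829 of the group's range, where chance flags about 1 group in 20 for continuous values, a rate that does not hold for groups with most libraries at or near 0. In each the library apart was the highest. Some of these 8 were siFOXA1.1 replicate 2 libraries set apart among the siFOXA1 libraries. They were B2M in SCaBER at 105 CPM, PSMB9 in SCaBER at 179 CPM, and NLRC5 at 15.3 CPM and TAP1 at 3.83 CPM in RT112. For B2M, PSMB9 and NLRC5 the next libraries had 54.4, 99.2 and 1.502 CPM. TAP1 also stood apart in RT112 siControl.2 replicate 2 at 0.834 CPM and in SCaBER siFOXA1.2 replicate 1 at 1.08 CPM. HLA-C stood apart in RT112 siFOXA1.2 replicate 2 at 1.502 CPM and PSMB8 in SCaBER siControl.1 replicate 2 at 4.99 CPM. For TAP1, HLA-C and PSMB8 the next library had at most 0.442 CPM in each case. The cause was not tested.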

How the results depend on the processing

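In SCaBER under siFOXA1.1, 1 member (NLRC5) passed as reported. There were 2 (NLRC5 and B2M) with DESeq2, with the replicate block, without the filter and against siControl.2 alone, and 0 with limma on TPM and against siControl.1 alone. In RT112 under siFOXA1.1 the count was 0, and 1 (NLRC5) without the filter or with a filter by siRNA groups, the latter chosen after seeing the data. For the interaction with siFOXA1.1 it was 1 (NLRC5) without the filter. When each library was left out in turn, there were 0 to 3 members in SCaBER under siFOXA1.1 (0 without siControl.2 replicate 2, 3 without siFOXA1.1 replicate 1), 0 to 1 in RT112, and 0 to 1 for siFOXA1.1 against siFOXA1.2 in each line. The log2 ratio of FOXA1 in RT112 ranged from -2.60 to -1.55, and 4 against 3 libraries cannot reach an exact permutation p below 0.0571. With TMM factors the level of HLA-B in SCaBER siControl.1 was 5.21 CPM. The replicate block changed the call of B2M alone among the members.

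Some estimates that passed no test as reported changed sign. With limma on TPM, PSMB9 in RT112 was -0.16 under siFOXA1.1, -0.031 under siFOXA1.2 and -0.095 pooled, HLA-B in SCaBER was -0.10, -0.29 and -0.20 in that order, and the interactions with siFOXA1.1 were -0.20 for TAPBP and -0.41 for NLRC5. With the block HLA-B in SCaBER was -0.22 under siFOXA1.2. Against siControl.1 alone, PSMB9 in RT112 was -0.071 under siFOXA1.1 and -0.36 under siFOXA1.2, B2M under siFOXA1.2 was 0.50 in RT112 and -0.14 in SCaBER, and HLA-B in SCaBER was -0.31 and -0.68. Leaving out 1 library at a time, PSMB9 in RT112 ranged from -0.996 to 1.08 under siFOXA1.1, from -0.80 to 0.66 under siFOXA1.2 and from -0.25 to 0.55 pooled. B2M in RT112 ranged from -0.34 to 0.28 under siFOXA1.2 and from -0.059 to 0.81 pooled. In SCaBER HLA-B ranged from -3.80 to 3.67 under siFOXA1.1, from -4.09 to 3.32 under siFOXA1.2 and from -0.62 to 0.49 pooled, TAPBP from -0.40 to 0.72 under siFOXA1.2, and PSMB9 from -0.00336 to 0.78 under siFOXA1.1 and from -0.13 to 0.27 pooled. The interactions with siFOXA1.1 ranged from -0.68 to 0.24 for B2M, -3.62 to 4.58 for PSMB8, -1.45 to 0.63 for PSMB9 and -1.18 to 5.34 for NLRC5. The cause was not tested. Of all calls under siFOXA1.1 in RT112, 47.9% were higher, against 36.9% with library totals and 21.3% with limma, where the median of all genes was -0.14 and -0.29. Low counts limit HLA-B, HLA-C, TAP1, TAP2 and PSMB8.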
